A study of Mus musculus with 50 samples.

Results

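The cytosolic ribosomal protein genes were followed across 50 single mouse cells. They were taken by symbol: every gene row whose name begins with Rpl or Rps and a digit, with Rplp or with Rpsa, leaving out the Rps6k kinases and the Rps19bp binding protein. This gave 85 of 11879 rows, 52 named for the large subunit and 33 for the small subunit. Of these, 6 end in l, l1 or x (Rpl22l1, Rpl36al, Rpl39l, Rpl7l1, Rps27l and Rps4x), and 3 carry a pseudogene suffix (Rplp2-ps1, Rps19-ps3 and Rpl34-ps1). The rule used no measured value.

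The cells were induced hemogenic endothelial cells (iHECs) from embryonic stem cells on a C57BL/6 background. All carried a doxycycline-inducible Runx1 cassette in the Rosa26 locus and, per the study's methods, were exposed to doxycycline before single cells were sorted on day 11 as CD31+ CD41low CD45- c-kit+ CD201high. The cells form 1 group without a control and come from an engineered stem cell line, so no difference between conditions can be tested. The labels name no separate cultures, and the cells are not treated as replicates. The cell titles hold 2 numbers. The first runs from 1 to 4 and splits the cells into 11, 14, 13 and 12, and the labels do not say what it marks. Cells are named here by those numbers.

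The values are TPM, a transcript abundance scaled per transcript length and to a fixed total per cell, so that levels can be compared between genes and a larger share for some genes leaves less for the others. Read depth is not known. The listed rows held 94.3% to 97.1% of each cell's full TPM total. Between 2400 and 8615 genes exceeded TPM 1 in a cell, with a median of 6224 and the lowest number in cell 4-6, and 7 cells had fewer than 5000. Of 12 endothelial marker rows, 8 were above TPM 1 in all 50 cells, among them Pecam1 (CD31) and Cdh5, and the list summed to 623 to 9476 TPM in a cell. Ptprc (CD45) was listed at 0 in all cells, and the 8 blood marker rows summed to 14.0 to 7422 TPM. The 7 erythroid rows summed to 0 to 821 TPM, the 6 megakaryocyte rows to 0 to 712 TPM and the 7 mesenchymal rows to 0 to 26.2 TPM, and no pluripotency marker of the list of 7 was analysed here.

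A cytosolic ribosome joins a small subunit, which reads the messenger RNA, to a large subunit, which makes the peptide bond. Most of its proteins are present once per ribosome, and their genes are transcribed in nearly every cell at high level. Many of their messenger RNAs begin with a C followed by a run of pyrimidines, the 5′ terminal oligopyrimidine (TOP) tract, through which mTOR signalling controls how strongly they are translated. The genes have left many processed pseudogenes, intronless copies of the messenger RNA, across the mouse genome, so short reads can match several places.

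The annotated start sites of 5 abundant members, picked to show starts both with and without a tract, show what such a tract looks like and that the annotation does not always begin with it. Their mix does not stand for the family, and among other abundant members Rps19, Rpl4 and Rps2 also have no tract at the annotated start. Each line gives 10 bases before the start and 20 from it, 5′ to 3′ on the gene's strand, from RefSeq on GRCm38.p6, and capitals mark the C at the start with the pyrimidines that follow it. The first 3 begin with a tract, and the last 2, of the abundant Rpl13 and Rpl41, have none at the annotated base.
Rps18, chr17:33955646-33955675, minus strand: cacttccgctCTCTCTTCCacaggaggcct
Rps6, chr4:86857348-86857377, minus strand: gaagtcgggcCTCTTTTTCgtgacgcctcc
Rpl35, chr2:39005112-39005141, minus strand: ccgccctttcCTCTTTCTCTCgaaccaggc
Rpl13, chr8:123102340-123102369, plus strand: tttcgcctgattttgattggcgtttgagat
Rpl41, chr10:128549149-128549178, minus strand: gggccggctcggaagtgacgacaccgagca

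Start sequences were matched for 61 of the 85 members. A C at the start with 4 or more C or T after it, read on the gene's own strand, was found for 13 of them (21.3%), against 813 of all 27025 genes (3.01%). The tracts ran for 5 to 13 bases with a median of 8. In the list of other transcripts known to carry the tract, 5 of 13 genes with a sequence had it, and in the lists of ribosome biogenesis and cell division 0 of 26 and 0 of 13 had it. When the tract could lie anywhere in the 30 bases, 41 of 61 members held it (67.2%), against 39.6% of all genes. Among members above TPM 1 in all cells, the 13 with a tract at the annotated start had a median level of 876 TPM and the 46 without had 1139 TPM. These letters describe the annotation and do not say which start the cells used.

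Ribosomal proteins took up a median of 14.1% of a cell's listed TPM. The share was lowest at 8.63% in cell 2-17 and highest at 22.3% in cell 4-6, and the middle 50% of cells lay between 11.9% and 15.6%. By first title number the medians were 13.5%, 14.5%, 12.7% and 15.4%, and the ranges of the 4 sets of cells overlapped. The other 233 rows with a median of 500 TPM or more summed to a median of 29.4% and ran from 25.7% to 33%. The coefficient of variation over cells was 22.9% for the ribosomal protein share and 5.17% for these other abundant rows.

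Nearly all members were found in every cell. TPM 1 was exceeded in all 50 cells by 81 of the 85 rows, against 849 of all 11879 rows (7.15%). A median of 500 TPM or more was reached by 71 of the 85, against 304 of all rows (2.56%), and 44 of the 100 rows of highest median level were members. The 4 rows that missed TPM 1 in some cell were paralogs or copies. Rpl39l, a paralog of Rpl39 best known from testis, was listed at 0 in all 50 cells, for which the 95% exact Clopper-Pearson interval of the share of cells above TPM 1 reaches 7.11%. Rps19-ps3 exceeded TPM 1 in 8 cells (16%, interval 7.17% to 29.1%), Rps4y2 in 42 cells (84%, 70.9% to 92.8%) and Rpl7l1 in 49 cells (98%, 89.4% to 99.9%). These intervals cover counting error only and, at unknown depth, do not limit the share of cells that express a gene.

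**Figure D1:**
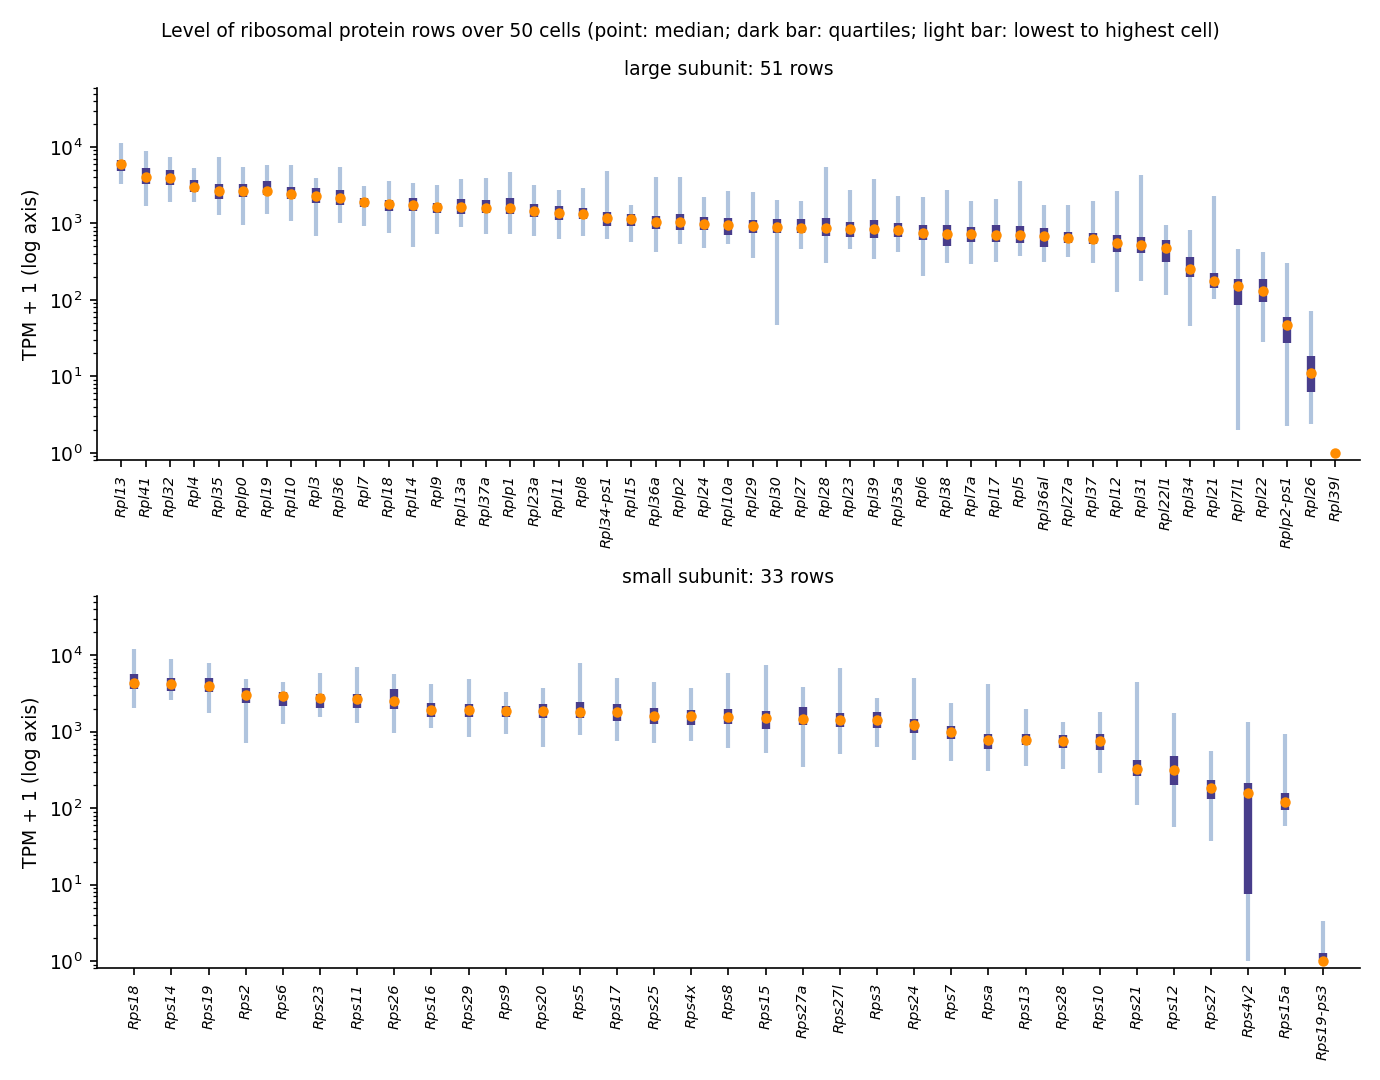
Level of 84 ribosomal protein rows over 50 cells, as TPM + 1 on a log axis, with 51 large subunit rows above and 33 small subunit rows below. Points are medians, dark bars the quartiles and light bars the lowest and highest cell. Most rows lie within a narrow band above 500 TPM, from Rpl13 at 5919 TPM downward, and Rpl26 is at 10.1 TPM.

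Rpl13, a large subunit protein, had the highest median level of the family. It ran from 3236 TPM in cell 2-2 through a median of 5919 TPM to 11405 TPM in cell 1-9, ranked 5 among all rows and was the most abundant member in 32 of 50 cells. Rps18, which sits in the head of the small subunit, ran from 2009 through 4305 to 12000 TPM and led in 7 cells. Rps14 followed at a median of 4191 TPM. The very short Rpl41 ran from 1693 through 4003 to 8832 TPM and led in 5 cells. Below them were Rps19 at 3934 TPM, Rpl32 at 3926 TPM, Rpl4 at 3034 TPM, Rps2 at 3025 TPM and Rps6 at 2934 TPM. The ranges over cells of neighbours in this order overlapped widely. A cell's 10 most abundant rows held a median of 2 members and at most 6.

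The lower end of the family was set by a few genes. Rpl26 ran from 1.36 through 10.1 to 70.1 TPM and the pseudogene row Rplp2-ps1 from 1.25 through 46.6 to 306 TPM. Rps15a had a median of 120 TPM, Rpl22 of 130 TPM, Rpl21 of 173 TPM, Rps27 of 182.4 TPM, Rpl34 of 256 TPM, Rps12 of 312 TPM and Rps21 of 321 TPM. Over the 81 rows present in every cell, medians spanned 586-fold. That span rested on Rpl26, whose level is uncertain because of a near-identical copy described further on. It was 127-fold without Rpl26 and 49.3-fold without Rpl26 and the pseudogene rows. The levels of Rps27, Rpl34 and Rpl21, which also have copy rows, are uncertain too. Rps15a, the lowest row of the 49.3-fold span, has 6 near-identical copies without rows of their own. The quartiles of the 81 medians were 746 and 1920 TPM.

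The large and small subunit sums kept a steady ratio. Their ratio was 1.32 at the median and ran from 1.12 to 1.51, a coefficient of variation of 5.86%, while the share itself varied by 22.9%. Across the 50 cells the 2 sums had a Spearman rho of 0.97, as a description over cells that share the fixed TPM total. The 50 large subunit rows present in every cell had a median level of 1009 TPM and the 31 small subunit rows 1619 TPM.

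The P stalk (Rplp0, Rplp1 and Rplp2), which recruits elongation factors, had medians of 2667, 1592 and 1034 TPM and made up 4.16% of ribosomal protein TPM. Rpl5 and Rpl11, which with 5S RNA form a particle that can bind Mdm2, had medians of 696 and 1370 TPM. The 9 listed genes mutated in Diamond-Blackfan anemia, an inherited failure of red cell production, ran from 696 TPM (Rpl5) to 3934 TPM (Rps19) and made up 11.1% of ribosomal protein TPM. Rps14, whose loss is tied to the anemia of the 5q deletion, was at 4191 TPM. The 4 X-linked members were Rpl10 at 2448 TPM, Rps4x at 1619 TPM, Rpl36a at 1044 TPM and Rpl39 at 834 TPM. Rpl38, Rpl10a and Rps25, known for roles in the translation of particular messenger RNAs, were at 737, 966 and 1625 TPM. The proteins that the naming rule misses include Gnb2l1 (Rack1) at 1383 TPM and Fau (a ubiquitin-like protein fused to eS30) at 1121 TPM.

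The spread between cells was small for most members. The standard deviation of log2(TPM + 1) over 50 cells had a median of 0.54 over the 81 rows and ran from 0.35 to 1.61. For the 71 members with a median of 500 TPM or more it was 0.52, and for the 233 other rows above that threshold 0.82. Of the 50 rows with the smallest spread above the threshold, 39 were members. The 2 sets were not matched for level. A median of 1000 TPM or more was reached by 47 of the 71 members, against 124 of all 304 rows above the threshold. Over 79 coding members, spread and median level had a rho of -0.65. The smallest spreads belonged to Rpl4 (0.35), Rps14 (0.37), Rps9 (0.38), Rpl15 (0.38) and Rpl7 (0.40). The largest belonged to Rplp2-ps1 (1.61), Rpl30 (1.08), Rpl26 (1.02), Rps12 (1.00) and Rps21 (0.85). As a fraction of ribosomal protein TPM instead of all TPM, the spread was smaller for 73 of 81 members, with a median of 0.42. Spread includes amplification and sampling noise, whose part was not tested.

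**Figure D2:**
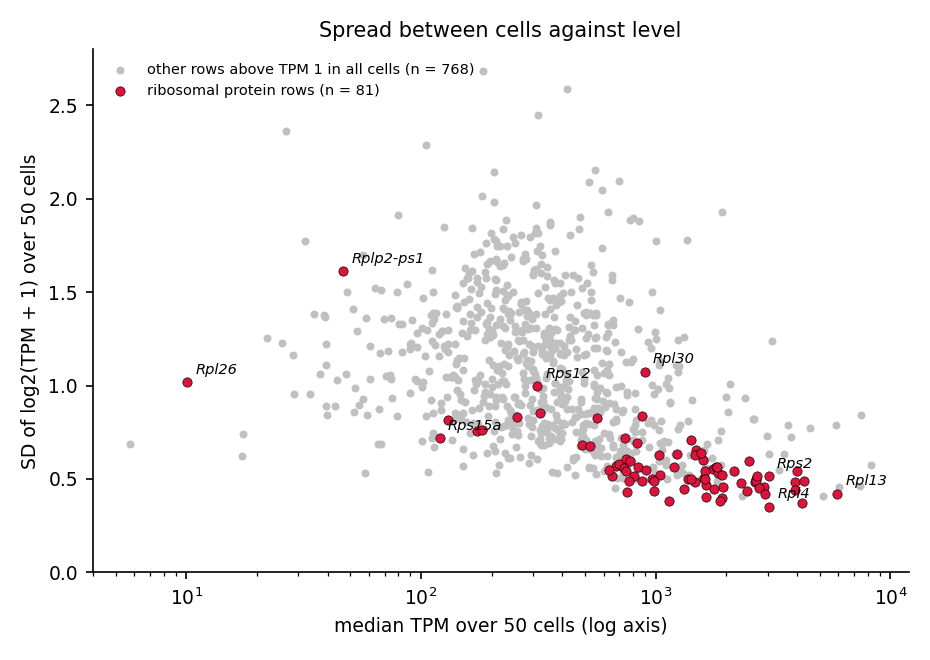
Standard deviation of log2(TPM + 1) over 50 cells against median TPM on a log axis, for 81 ribosomal protein rows in red and 768 other rows above TPM 1 in all cells in grey. The red points form the lower edge of the cloud, with a median of 0.54, and Rpl30 (1.08) and Rplp2-ps1 (1.61) stand above it.

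Levels of different members were positively related from cell to cell. The median Spearman rho over the 3240 pairs of the 81 members was 0.39 and 94.9% of pairs were positive. For the other 233 rows of 500 TPM or more it was 0.021, with 53.9% positive. Among the 81 rows, Rpl36 had the highest rho with the sum of the rest of the family (0.91) and Rps27l the lowest (-0.079). Rpl7l1, which is not among them, had -0.31. Extreme values gathered in a few cells, as 17 members had their highest value in cell 4-6 and 12 in cell 2-12, while 17 of the 81 had their lowest in cell 2-2 and 14 in cell 2-17. These correlations are over 50 cells of 1 group and share the fixed total of each cell.

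The share was lower in cells with more genes above TPM 1. Spearman's rho was -0.65 and Pearson's r -0.66 over 50 cells, and r was -0.57 without cells 4-6 and 3-8, which lay farthest from the median number of genes. Within the first title numbers rho was -0.75, -0.54, -0.27 and -0.78. For the share of the 233 other abundant rows rho was -0.37 over all cells and -0.15, -0.44, -0.52 and -0.51 within the title numbers, so in number 3 it lay further below 0 than that of the ribosomal protein share. No p-value is given because the cells are not replicates, and both measures come from the same library and depend on its unknown depth. The part of depth in the relation was not tested.

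**Figure D3:**
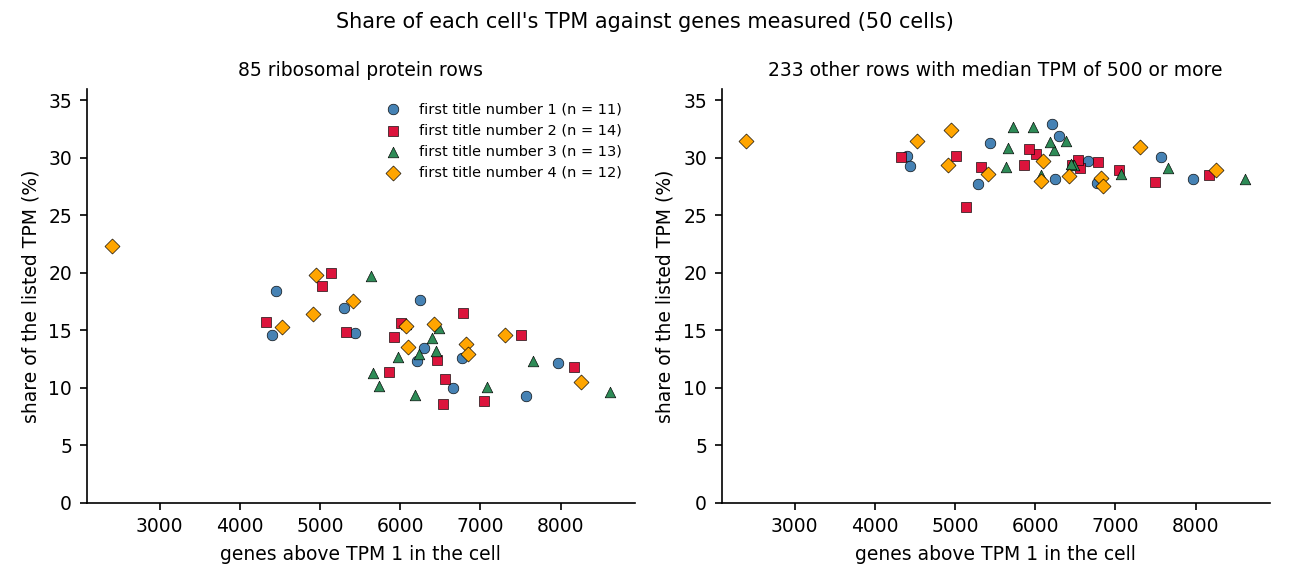
Share of the listed TPM in each of 50 cells against the number of genes above TPM 1, with the 85 ribosomal protein rows on the left and the 233 other rows of median 500 TPM or more on the right; colour and symbol give the first title number. The left share runs from 22.3% in the cell with 2400 genes down to 8.63%, and the right share stays between 25.7% and 33%.

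The relation was spread over the family. Of the 81 members present in every cell, 78 had a negative rho with the number of genes, against 44.9% of all 849 such rows, and the median was -0.34 for members and 0.066 for the 768 other rows. In 39 of the 81 members rho was negative within each of the 4 first title numbers, against 12.2% of all 849 such rows. The lowest values were those of Rps14 (-0.66), Rpl17 (-0.61), Rps16 (-0.58), Rps6 (-0.57) and Rpl36 (-0.57). The highest were those of Rps2 (0.32), Rps27l (0.099), Rps13 (0.0086), Rpl26 (-0.042) and Rpl36al (-0.068). The sign of Rps13, Rps27l, Rpl26 and Rpl36al changed in at least 1 alternative, while that of Rps2 did not, although its rho was 0.16 without the cells of first title number 4. Rpl7l1, present in 49 cells, had a rho of 0.31.

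**Figure D4:**
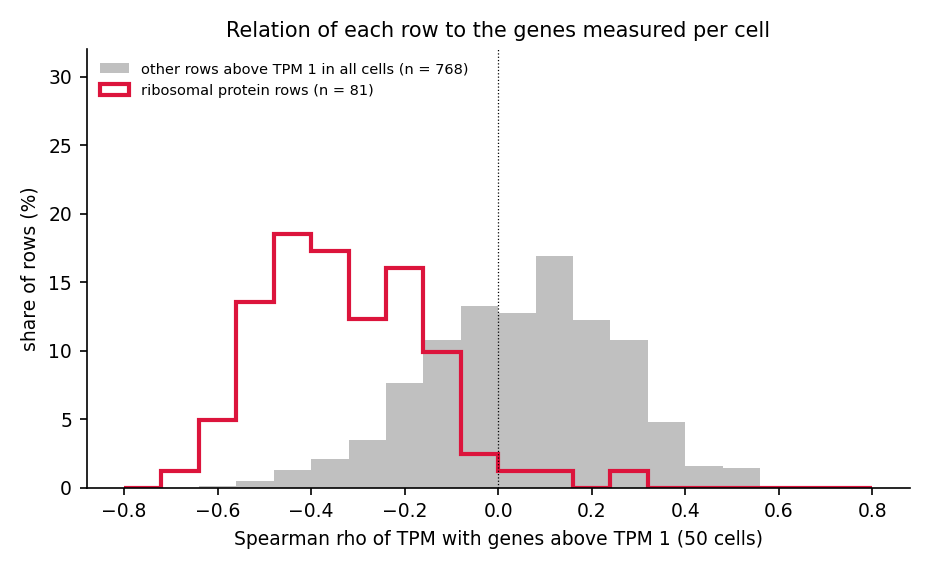
Distribution of Spearman's rho between a row's TPM and the number of genes above TPM 1 over 50 cells, as a share of rows, for 81 ribosomal protein rows (red line) and 768 other rows above TPM 1 in all cells (grey). The red distribution has its median at -0.34 and the grey at 0.066.

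Rows ending in l, l1 or x made up a median of 3.53% of ribosomal protein TPM, from 1.78% to 6.63%. Rps4x, the usual S4 gene in mouse, held a median of 1.19% and Rps27l of 1.16%, and without Rps4x and Rpl36al the sum was 1.59%. Rps27l, a target of p53 that can stand in for Rps27, ran from 510 through 1420 to 6852 TPM and exceeded the Rps27 row in 50 of 50 cells. That row shares its coding sequence with Gm9846, and the sum of Rps27 and Gm9846, with a median of 3272 TPM, was above Rps27l in 43 of 50 cells. Rpl22l1, the paralog of Rpl22 with a role in early blood and T cell development, ran from 117 through 483 to 942 TPM against 130 TPM for Rpl22 and was higher in 49 of 50 cells. Rpl36al had 677 TPM against 1044 TPM for Rpl36a and was higher in 6 cells. Rpl7l1 had 152 TPM against 1920 TPM for Rpl7 and was higher in 0 of 50. Rps4y2, a synonym of the transcribed pseudogene Rps4l on chromosome 6, ran from 0 through 155 to 1356 TPM with a spread of 3.1 on the log2 scale, and exceeded Rps4x in cell 3-3 alone.

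Rps27, Rpl26 and Rpl34, which are among the low genes, had a near-identical copy with a row of its own that held most of the TPM. The coding sequence of Rps27 (chr3:90212522-90213651, minus strand) is the same in all 252 bases as that of Rps27rt (chr9:114982366-114982739, minus strand), whose row is named Gm9846. Gm9846 ran from 1035 through 3041 to 8477 TPM, was above Rps27 in 50 of 50 cells and took a median of 95% of the pair's TPM. The coding sequence of Rpl26 (chr11:68901583-68906989, plus strand) differs from the processed pseudogene Gm15772 (chr5:3236431-3236868, plus strand) at 2 of 435 bases, C177T and T288C, counted from the A of the start codon. Gm15772 had a median of 1614 TPM against 10.1 TPM for Rpl26, was higher in 50 of 50 cells and took 99.4% of the sum. Rpl34-ps1, itself a member, had 1194 TPM against 256 TPM for Rpl34 and was higher in 50 of 50 cells. The balance lay the other way for Rpl21, where the copy BC004004 took a median of 20.7% and was higher in 5 of 50 cells, for Rpl37 and its copy Gm13826 (17.2%) and for Rpl22l1 and its copy Gm15421 (1.21%). Because the reads of such a pair can be placed at either copy, neither row's level is certain. The median sum was 3272 TPM for Rps27 with Gm9846 and 1644 TPM for Rpl26 with Gm15772.

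The windows of 30 coding bases below, from GENCODE M21 transcripts on GRCm38, show how little separates a member from its copy, with the differing base in capitals. The first pair covers bases 162 to 191 of Rpl26 and the second bases 81 to 110 of Rpl30, where the change is G96A and is the only difference in 345 bases.
Rpl26: agttcaggttgttcgCggacactacaaagg
Gm15772: agttcaggttgttcgTggacactacaaagg
Rpl30: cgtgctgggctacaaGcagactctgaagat
Gm12191: cgtgctgggctacaaAcagactctgaagat

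Rpl30 (chr15:34440505-34443640, minus strand) and its processed pseudogene Gm12191 (chr11:49678710-49679057, minus strand) changed places in a few cells. Rpl30 had a median of 897 TPM and Gm12191 of 8.94 TPM, but in cell 1-2 they were at 83.2 and 605 TPM, in cell 2-8 at 45.7 and 634 TPM, in cell 2-16 at 72.2 and 771 TPM and in cell 4-12 at 163 and 1604 TPM. The spread of Rpl30 was 1.08 on the log2 scale and that of the sum of both rows was 0.44. The sum ran from 518 through 927 to 2055 TPM. Rpl30 was thus among the most variable members as a row of its own, and its sum with the copy was below the family's median spread of 0.54.

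**Figure D5:**
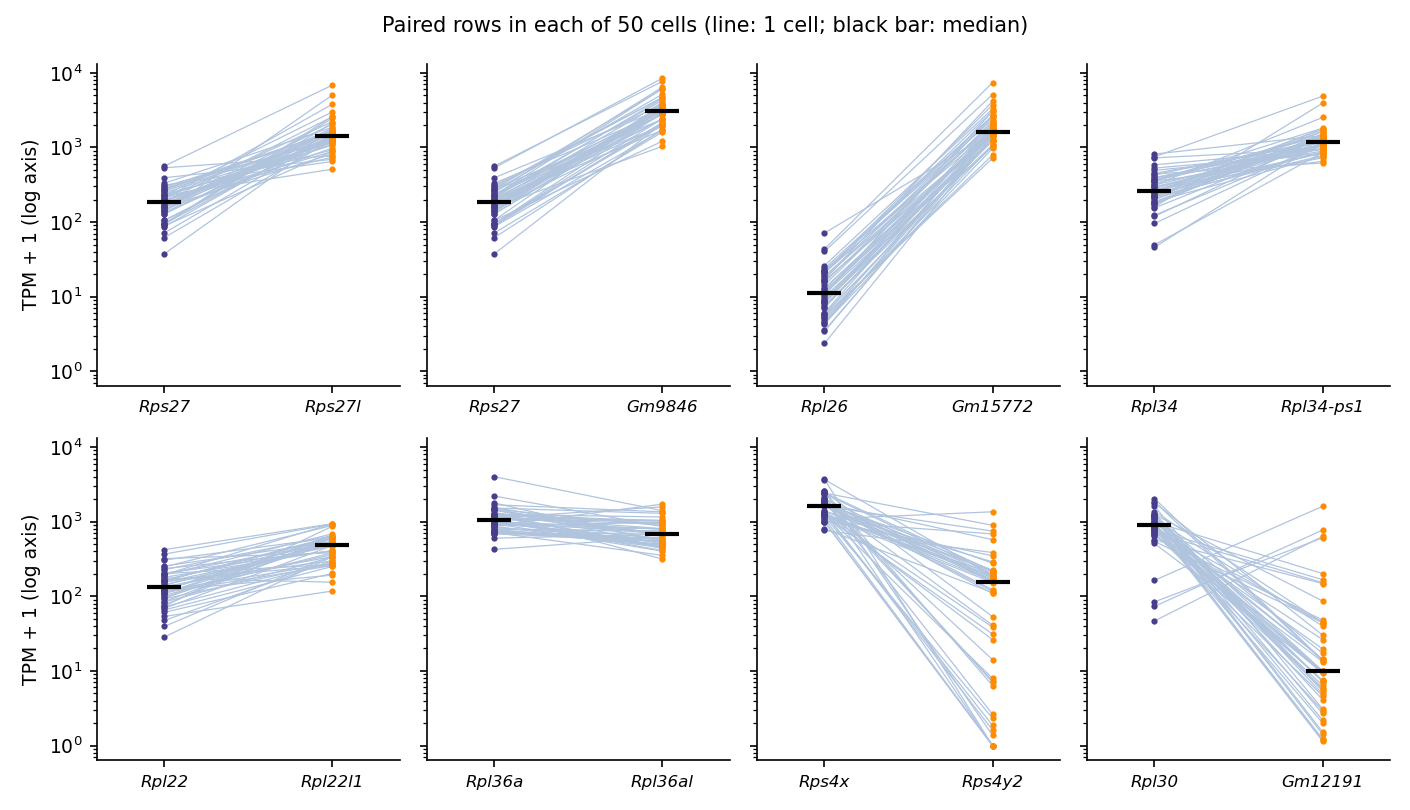
TPM + 1 on a log axis for 8 pairs of a ribosomal protein row and a paralog or copy, with 1 line per cell and black bars at the medians. Rps27l, Gm9846, Gm15772 and Rpl34-ps1 lie above the partner row in 50 of 50 cells, although the sum of Rps27 and Gm9846 is above Rps27l in 43 of 50, and the lines of Rpl30 and Gm12191 cross in 4 cells.

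Copies were common. A GENCODE gene with at least 95% identity over at least 90% of the coding sequence was found for 72 of 84 members compared, at least 5 of them for 41, and 56 for Rpl21. These are lower bounds, because each gene's longest annotated coding sequence was used and copies of a shorter form, as for Rps12 and Rps19, were not counted. How the reads that match several copies were counted is not given in the sources used here.

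Among the 4835 other rows with a median of 10 TPM or more, 10 (0.207%) matched a member's sequence, and 5 of the 10 rows that followed the share most closely were of that kind. They were Gm9846 (rho with the share 0.84, Rps27), C330021F23Rik (0.81) and Gm5148 (0.80), which overlap Rps23 pseudogenes on the opposite strand, Mir682 (0.71, within a stretch alike to Rpl37a) and Gm15772 (0.63, Rpl26). Others among the 10 were Gas5 (0.65) and 2410006H16Rik (0.64), which host small nucleolar RNAs, Ndufa6 of respiratory complex I (0.64) and Fau (0.62). Gnb2l1 had a rho of 0.41. The 10 rows that matched a member had a median rho with the share of 0.54, and 6 of them were positive. BC004004, which matched Rpl21, had -0.14. The lowest values were those of Lrrfip1 (-0.69), Acadl (-0.68), Thap4 (-0.64), Phlda3 (-0.62), Ppp1r2 (-0.60), the tetraspanin gene Cd81 (-0.60), Ubqln1 (-0.58), Tm9sf1 (-0.58), Golm1 (-0.58) and Gosr2 (-0.58), and 0 of these 10 matched a member. Over all 11364 rows with a value, 20.4% had a positive rho with the share and the median was -0.14.

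Of the genes around the ribosome, the list of other transcripts with a TOP tract stood highest, as 18 of 20 had a positive rho and the mean log2 level of the list had a rho of 0.58. Among them, the translationally controlled Tpt1 had 0.58, Npm1 0.44 and the elongation factor Eef1a1 0.39. For translation factors 14 of 35 were positive and the list had -0.20. Ribosome biogenesis had 11 of 32 positive and -0.28. Of its nucleolar genes, Ncl was at -0.21 and Npm1, which is also in this list, at the 0.44 given above. The upstream regulators had 2 of 9 positive and -0.25, with Mycn at 0.17, Myc at -0.049 and Mtor at -0.11. These 3 genes exceeded TPM 1 in only 41, 32 and 23 of 50 cells, and Mtor had a median of 0.048 TPM. The mitochondrial ribosomal proteins, which make a separate ribosome, had 20 of 76 positive and a list rho of -0.52. Their single rows had a median rho of -0.12, near the -0.14 of all rows. Division genes had 0 of 15 positive and -0.28. Of the cell type markers, the endothelial list had a rho with the share of -0.22, blood 0.063, erythroid 0.035, megakaryocyte -0.063 and mesenchymal -0.19. Over all rows the positive share was the 20.4% given above. The median rho of single rows with the share was 0.37 for the other transcripts with a TOP tract. It was -0.056 for translation factors and -0.068 for ribosome biogenesis, both above the -0.14 of all rows. For upstream regulators it was -0.17 and for division genes -0.22. A list rho averages many rows, and its value for lists of other rows was not tested. With the number of genes above TPM 1, the list rho was 0.77 for mitochondrial ribosomal proteins and 0.72 for ribosome biogenesis. It was 0.63 for translation factors, 0.47 for upstream regulators, 0.41 for division genes and -0.075 for the other transcripts with a TOP tract. In the same order, the median rho of single rows was 0.20, 0.31, 0.14, 0.24, 0.32 and -0.17, against 0.19 over all rows. Runx1, the induced factor, ran from 0.163 through 132 to 913 TPM and had a rho with the share of 0.022. These are descriptions over the same 50 cells.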

How the data were processed

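Single cells were amplified with a whole-transcriptome kit from polyA RNA and sequenced as 50 libraries of 1 cell each. Per the labels, the submitters' processing notes name bcl2fastq, HISAT2 2.1.0, SAMtools 0.1.19, StringTie 1.3.4 and mm10. The authors deposited 1 table of TPM for all cells, and the rule by which its 11879 rows were kept is not given in the sources used here. No molecular identifiers are named, doublets were not called and all cells were kept. Cells were mapped by title, and 0 value columns were unmapped. Members and gene lists were chosen with earlier results of these data known. Shares were taken of the listed TPM, spreads as SD of log2(TPM + 1), and relations as Spearman's rho without p-values. Named genes were the 10 members of highest median, the suffixed rows and their parents, rows missing TPM 1 in some cell, the 5 extremes at each end of spread and of rho, fixed role lists, and the 10 other rows at each end of rho with the share. The low members, the copy rows outside the rule and Tpt1, Npm1, Eef1a1 and Ncl were named after their values were seen. Of the members, 83 matched GENCODE M21 by symbol, 1 by a RefSeq synonym and 1 (Rplp2-ps1) did not. Of 91 coding GENCODE names that fit the rule, 10 have no row under that name. Rps27rt is among them and was analysed through the row Gm9846, and the others were not analysed here. Individual values of some genes that this rule names are not reported here. Copies were found with blastn 2.17.0. Scripts (Python 3.11.15, pandas 2.3.3, scipy 1.17.1) were tested on simulated data.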

Additional observations from a re-analysis of the deposited data

How the results depend on the processing

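No paired analysis was possible because all cells form 1 group. Of 85 alternative values of the main results, 78 moved by less than the spread between the 4 first title numbers (for counts, by less than 1.5 times). Leaving out the cells of any first title number, the cell with the fewest genes or the 7 cells with fewer than 5000 genes moved none of them past that limit. The rho of the share with the number of genes stayed between -0.70 and -0.54. Without the 5 most abundant members the share was 11.4% and the large to small ratio 1.47. That ratio was 1.39 without the paralog rows and, chosen after seeing the data, 1.26 with Fau and Gnb2l1 added to the small subunit and 1.29 with 5 copy rows added. The paralog share was 1.59% without Rps4x and Rpl36al. Allowing the tract anywhere in the window, also chosen after seeing the data, raised the members with it from 13 to 41. Signs changed for 4 members near 0: the rho of Rps13 with the number of genes was -0.052 without first title number 2, -0.0031 with genes above TPM 10 and -0.065 with TPM rescaled outside the members; that of Rps27l was -0.031 without number 2; that of Rpl36al was 0.0078 without number 4; and that of Rpl26 was 0.062 without number 4 and 0.014 without the cell with the fewest genes. For the named members, 179 alternative values stayed within the spread between title numbers, and 4 spreads did not (Rpl26 with a pseudocount of 0.1 or 10, Rplp2-ps1 with 10 and Rpl15 rescaled). Depth is not known, so cells could not be brought to equal depth.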
